A study of Homo sapiens with 9 samples.

Results

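The 32 genes described here make, sense, take up and export cholesterol. They were chosen by name, as the rows that carry their gene symbols, among 26830 genes in each of 9 RNA-seq tables, and 31 of them had enough reads to be tested. The libraries came from cells labelled NB4, a human leukemia line, kept for 48 h with FB23-2, FB23 or DMSO, the solvent control, with 3 libraries in each group. The labels mark both compound groups as FTO inhibition, FTO being an RNA demethylase, but give no doses, so responses to the compounds were compared at 1 time and at doses that are not known to match. Nothing in the labels says whether the 3 libraries of a group came from separate cultures, and p-values therefore measure the spread between libraries, which may be technical. RNA was enriched for poly(A) and made into strand-specific libraries.

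Animal cells build cholesterol from acetyl-CoA through mevalonate, isoprenoid diphosphates, squalene and lanosterol, and most of the enzymes are induced together when sterol in the endoplasmic reticulum runs low. In that state SCAP escorts the transcription factor SREBP-2, made from SREBF2, to the Golgi for cleavage, whereas INSIG proteins hold SCAP back when sterol is plentiful. Oxysterols, which report a surplus, bind the liver X receptors (LXRs) and induce exporters and MYLIP, a ubiquitin ligase that removes lipoprotein receptors. The members were therefore read as 23 known SREBP targets, 4 known LXR targets (MYLIP, ABCA1, ABCG1 and NR1H3) and 5 genes placed in neither class (LBR, SCAP, INSIG2, NPC2 and NR1H2).

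The 9 libraries held between 12360291 and 38410750 expected counts, and the 3 libraries of a group stayed close together for these genes. The median coefficient of variation of a tested member's CPM, the count scaled to library size with TMM factors, was 3.80% with FB23-2, 5.32% with FB23 and 3.42% with DMSO. The libraries showed few of the usual markers of the named line. NB4 is known as a promyelocytic line and is labelled as acute monocytic leukemia, yet the granule genes MPO and CTSG had 0 counts in all 9 libraries, which allows at most 0.0156 CPM over the 9 libraries, counting error only, and of 6 promyelocyte markers only CD33 was expressed enough to be tested. Globin and other erythroid transcripts were abundant instead. In TPM, abundance scaled for length and library total, the 8 erythroid markers summed to 3870 to 4439 with FB23-2. The sum was 30982 to 33325 with FB23 and 27039 to 28623 with DMSO. All 8 fell with FB23-2 against DMSO at an adjusted p under 0.05 (edgeR), as did 41.3% of all tested genes, while 41.3% rose. The 8 monocyte and macrophage markers summed to 64.1 to 70.6 TPM with FB23-2, 10.4 to 12.2 with FB23 and 13.99 to 14.98 with DMSO. Of these, ITGAX, CD68 and LYZ rose and ITGAM fell with FB23-2 against DMSO, CD14, CSF1R, MARCO and MRC1 were too low to test, and MARCO had 0 counts. The part of these marker shifts in the results below was not tested, and in bulk RNA fewer cells of a type and less RNA per cell cannot be told apart.

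With FB23-2, nearly the whole cholesterol pathway was higher than with DMSO. Of the 31 tested members 26 rose and 5 fell (edgeR quasi-likelihood test, adjusted p under 0.05 over 13365 genes), against a background in which 82.6% of all tested genes were called, 41.3% as higher and 41.3% as lower. The median log2 fold change of the members was 1.77, a 3.42-fold difference, against 0.01 for all tested genes. A rise of at least 1 on the log2 scale was seen for 24 members, against 20.7% of all tested genes. The libraries of FB23-2 and DMSO did not overlap in any of the 31 members, while 42.1% of tested genes lay wholly above and 42.1% wholly below. The SREBP targets accounted for most of this: 22 of 23 rose, with a median of 1.80, and PMVK alone fell. Of the 3 tested LXR targets ABCA1 and NR1H3 rose and MYLIP fell, and of the 5 others INSIG2 and NPC2 rose while LBR, SCAP and NR1H2 fell, although SCAP and NR1H2 were not called with upper-quartile factors, library totals or TPM, and SCAP was 0.05 higher on TPM.

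FB23 gave a much smaller change. Here 15 of 31 members rose, 0 fell and 16 were not called against DMSO in the edgeR test, where 23.5% of all tested genes were called, 12.3% as higher and 11.2% as lower. The median log2 fold change of the members was 0.22, against 0.00 for all tested genes, and no member rose by 1 or more, as 0.763% of tested genes did. All 3 FB23 libraries lay above all 3 DMSO libraries for 21 members and below them for PMVK and TMEM97, against 19.1% and 18.8% of tested genes. At an unadjusted p under 0.05, 2 members were lower, and 0 were called lower by DESeq2 and 1 by limma on TPM. The called members were 14 of the 23 SREBP targets and NPC2. None of the 3 tested LXR targets was called by edgeR, DESeq2 or limma, and 0 had an unadjusted p under 0.05. Compared directly, FB23-2 exceeded FB23 in 26 members and was below it in 5, with a median log2 fold change of 1.55, where 81.5% of tested genes were called, 40.4% as higher and 41.1% as lower. A log2 difference of at least 1 upwards was seen in 24 members and in 18.1% of tested genes. The comparisons of each compound with DMSO share the DMSO libraries.

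**Figure D1:**
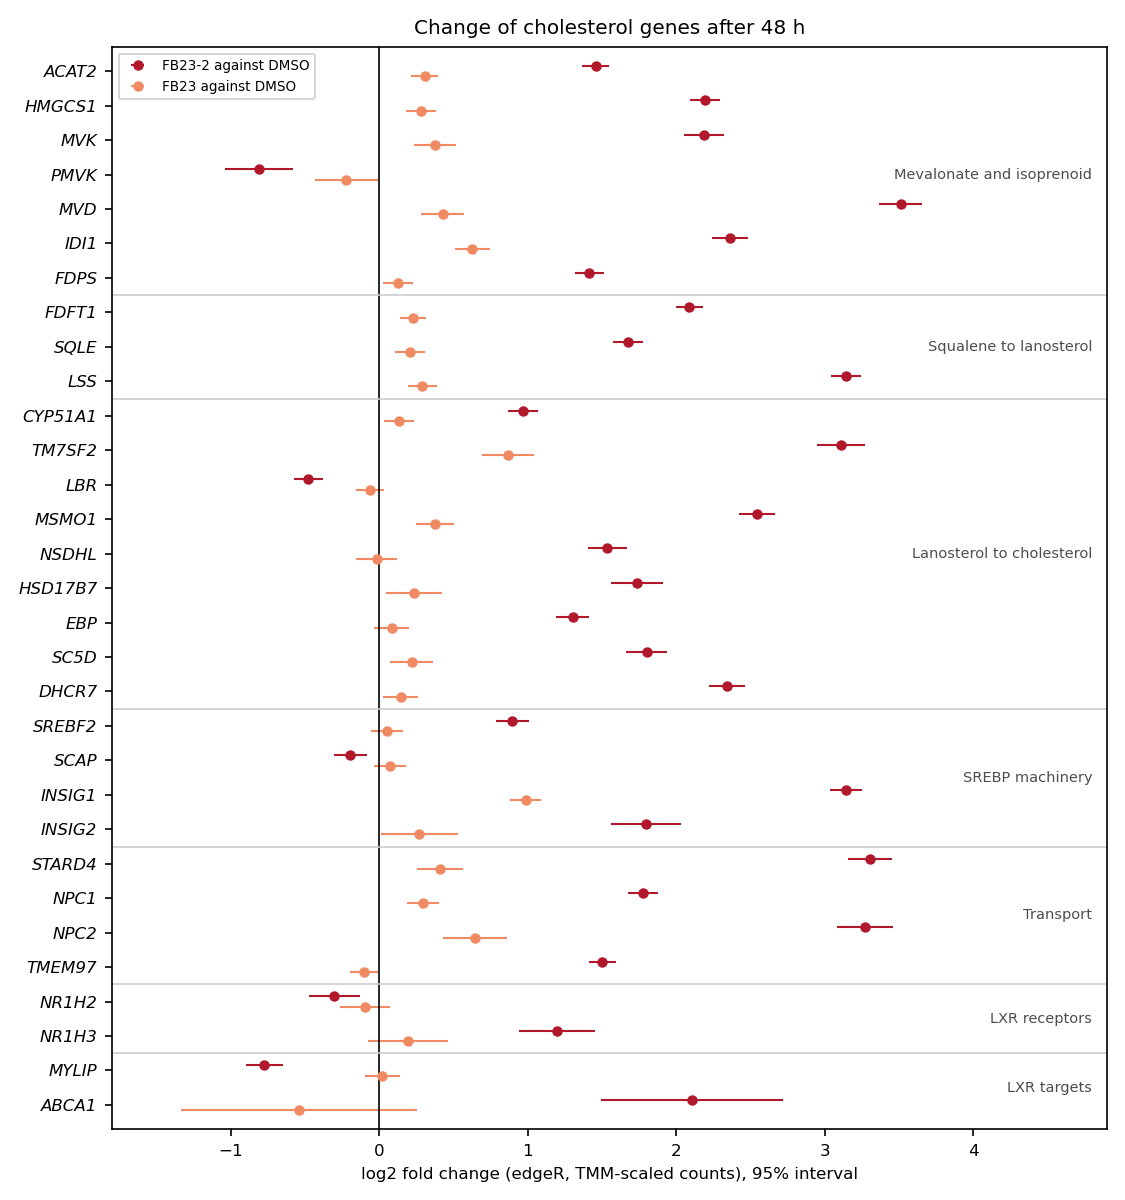
Log2 fold change (horizontal axis) of the 31 tested members against DMSO for FB23-2 and FB23, grouped by role, with points for the estimate and bars for the 95% interval from edgeR. With FB23-2, 26 points lie right of 0 and 5 left of it (SCAP turns to 0.05 on TPM), from MVD at 3.51 to PMVK at -0.81. The FB23 points lie between -0.54 and 0.98.

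Promoter sequences are shown because SREBP-2 acts at sterol elements, usually beside a CCAAT box bound by NF-Y, so that genes that moved together can be set beside their upstream sequence. RefSeq windows on GRCh38.p14, each 250 bases before to 50 after the start, were found for 28 of the 32 members. ACAT2, FDFT1, SQLE and ABCG1 were not matched. The windows of 6 members are printed on the gene's strand, 5′ to 3′, with matches to CCAAT (read as ATTGG on the opposite strand) and to the sterol element TCACCCCAC in capitals. SREBF2 (chr22:41832855-41833154, plus strand) holds both elements, MVD (chr16:88663042-88663341, minus), STARD4 (chr5:111512486-111512785, minus), INSIG1 (chr7:155297628-155297927, plus) and TM7SF2 (chr11:65111622-65111921, plus) rose most in their role groups, and PMVK (chr1:154936670-154936969, minus) is the SREBP target that fell.
SREBF2 promoter: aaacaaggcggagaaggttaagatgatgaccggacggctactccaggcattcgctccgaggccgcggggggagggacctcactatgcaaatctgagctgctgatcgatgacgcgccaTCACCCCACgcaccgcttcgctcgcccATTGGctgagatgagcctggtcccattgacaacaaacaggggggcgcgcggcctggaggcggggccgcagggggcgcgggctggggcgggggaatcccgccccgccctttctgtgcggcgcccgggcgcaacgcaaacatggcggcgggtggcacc
MVD promoter: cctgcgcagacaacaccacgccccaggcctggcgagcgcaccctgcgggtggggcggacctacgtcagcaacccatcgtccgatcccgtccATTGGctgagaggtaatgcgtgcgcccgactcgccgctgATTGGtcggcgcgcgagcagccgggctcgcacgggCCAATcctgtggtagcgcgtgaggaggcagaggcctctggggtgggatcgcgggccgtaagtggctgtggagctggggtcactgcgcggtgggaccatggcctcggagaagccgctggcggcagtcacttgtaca
INSIG1 promoter: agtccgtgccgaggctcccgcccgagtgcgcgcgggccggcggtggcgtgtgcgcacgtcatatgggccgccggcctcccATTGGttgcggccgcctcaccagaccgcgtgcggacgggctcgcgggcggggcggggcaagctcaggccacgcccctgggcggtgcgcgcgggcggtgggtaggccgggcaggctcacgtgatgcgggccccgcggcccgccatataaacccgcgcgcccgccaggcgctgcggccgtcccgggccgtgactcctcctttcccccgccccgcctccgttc
STARD4 promoter: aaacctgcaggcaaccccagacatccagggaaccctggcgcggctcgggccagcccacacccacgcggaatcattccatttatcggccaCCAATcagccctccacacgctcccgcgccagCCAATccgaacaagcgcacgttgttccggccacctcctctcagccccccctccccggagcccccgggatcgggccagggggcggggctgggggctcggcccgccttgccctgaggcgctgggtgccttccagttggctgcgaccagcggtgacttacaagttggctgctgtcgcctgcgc
TM7SF2 promoter: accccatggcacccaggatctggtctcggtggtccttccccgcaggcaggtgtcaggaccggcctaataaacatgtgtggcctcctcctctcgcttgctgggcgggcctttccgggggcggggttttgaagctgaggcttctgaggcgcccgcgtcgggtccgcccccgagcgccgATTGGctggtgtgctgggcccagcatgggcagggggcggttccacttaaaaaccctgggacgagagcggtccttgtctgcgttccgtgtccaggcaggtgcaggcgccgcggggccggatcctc
PMVK promoter: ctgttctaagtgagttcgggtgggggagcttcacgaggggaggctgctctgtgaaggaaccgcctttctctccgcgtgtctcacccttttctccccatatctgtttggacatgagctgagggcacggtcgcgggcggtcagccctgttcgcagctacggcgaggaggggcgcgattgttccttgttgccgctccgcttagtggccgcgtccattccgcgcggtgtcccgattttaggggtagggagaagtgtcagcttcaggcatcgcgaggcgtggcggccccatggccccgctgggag

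In the SREBF2 window the sterol element began 133 bases before the start and the CCAAT box 106 bases before it. MVD held 3 CCAAT boxes, beginning 159, 120 and 85 bases before the start. STARD4 held 2, at 161 and 130 bases, INSIG1 held 1 at 170 bases and TM7SF2 held 1 at 74 bases. No match stood in the PMVK window. Searched on both strands, CCAAT was present in 16 of the 20 SREBP targets with a window (80%), in 1 of 3 LXR targets (MYLIP) and in 1 of 5 others (NPC2). The share among all 27305 promoters of that set was 35.7%, and among those of tested genes 37.0%. The SREBP targets without it were PMVK, IDI1, CYP51A1 and NPC1, of which IDI1, CYP51A1 and NPC1 rose with FB23-2. The windows follow the RefSeq start, which for IDI1 lay 7534 bases upstream of the gene's 5′ end in GENCODE, so the IDI1 window does not describe that end. For DHCR7, SCAP and NR1H2 it lay 4475, 1185 and 46804 bases inside the GENCODE gene, and for the other matched members it lay within 1000 bases of its end. TCACCCCAC was found in SREBF2 alone among the 28 members and in 0.425% of all promoters, and TCACNCCAC, which includes it, also in SREBF2 alone, against 1.15% of all. Other forms of the sterol element were not searched for, so a window without a match may still hold one. The LXR element was searched only as an exact direct repeat of AGGTCA with any 4 bases between. That form was found in 0 members, in 0 of the 9823 promoters of tested genes and in 0.0183% of all promoters. Repeats that differ from it by a base were not searched for, so the 0 does not show that a member lacks an LXR element. The motif results are counts of letters in short windows and say nothing of binding.

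**Figure D2:**
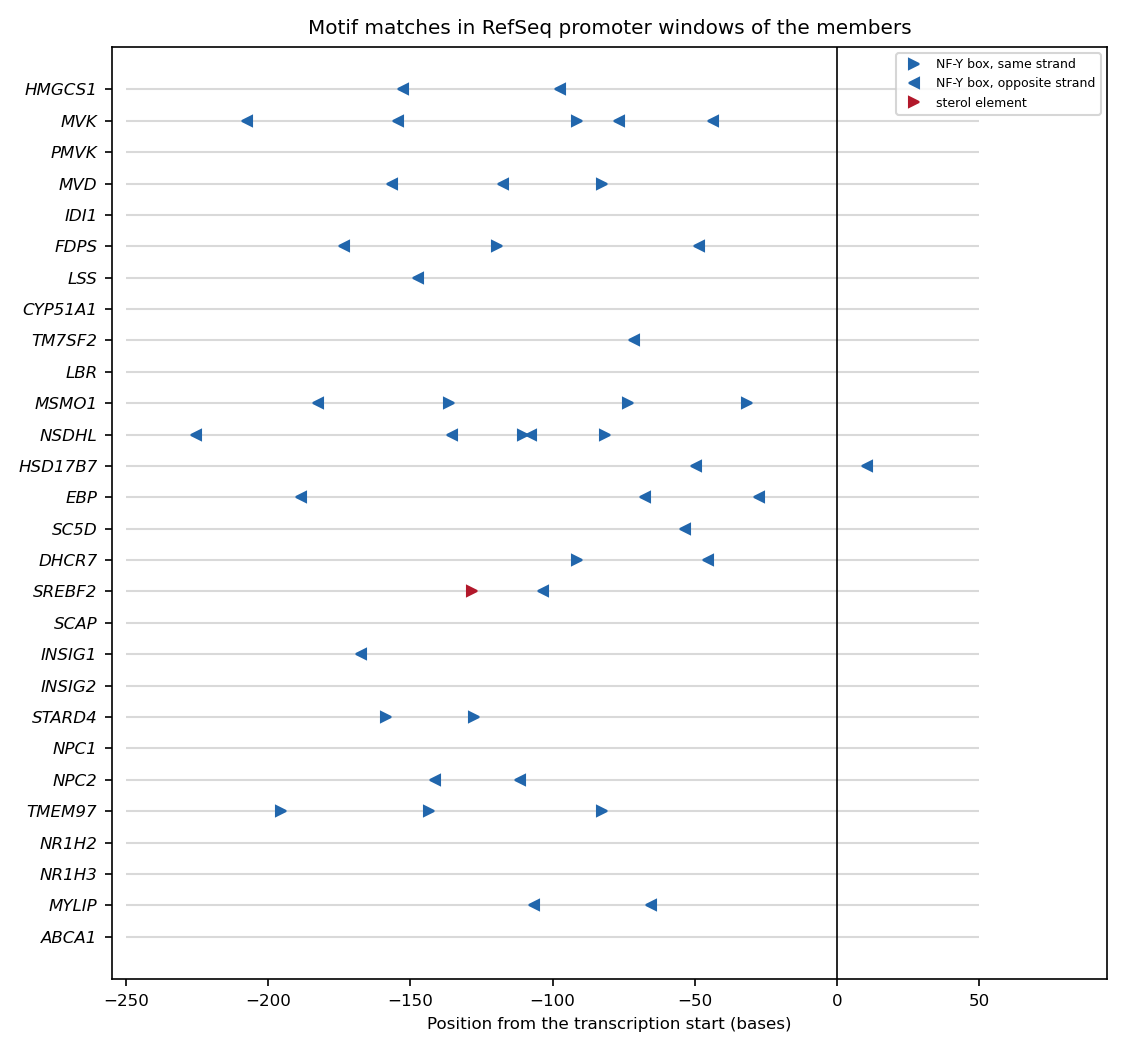
Position, in bases from the transcription start, of each match to the NF-Y box (blue) and the sterol element (red) in the promoter windows of the 28 matched members, with arrows for the strand. Of the 20 SREBP targets drawn 16 carry at least 1 NF-Y box. SREBF2 alone holds an exact match to TCACCCCAC, the only form of the sterol element drawn.

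The mevalonate segment runs from acetyl-CoA to farnesyl diphosphate, and 6 of its 7 listed genes rose with FB23-2 against DMSO. The share of all tested genes called higher was 41.3%. MVD, the diphosphomevalonate decarboxylase that makes isopentenyl diphosphate, had 757, 740 and 671 CPM with FB23-2, 76.0, 84.2 and 93.4 CPM with FB23 and 64.3, 61.5 and 64.3 CPM with DMSO. The groups did not overlap, and FB23-2 stood far above the other two. Against DMSO the log2 fold change was 3.51 ± 0.07 (SE) with FB23-2, an 11.4-fold rise and the largest of any member (edgeR, adjusted p = 1.85e-17), and 0.43 ± 0.07 with FB23 (adjusted p = 0.000282). Between the compounds it was 3.09 ± 0.07 (adjusted p = 7e-17). FDPS, which makes farnesyl diphosphate, rose least of the risers in this segment: 392, 375 and 366 CPM with FB23-2, 153, 149 and 161 CPM with FB23 and 146, 138 and 141 CPM with DMSO. The log2 fold change of FDPS was 1.41 ± 0.05 with FB23-2 (edgeR, adjusted p = 1.06e-14) and 0.13 ± 0.05 with FB23 (adjusted p = 0.0651), although all 3 FB23 libraries lay above all 3 DMSO libraries.

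PMVK, the phosphomevalonate kinase between MVK and MVD, went the other way. It had 5.79, 5.28 and 5.47 CPM with FB23-2, 7.62, 8.45 and 8.61 CPM with FB23 and 10.3, 9.54 and 9.25 CPM with DMSO. The 3 groups did not overlap, with FB23-2 lowest and DMSO highest. PMVK fell by 0.81 ± 0.11 on the log2 scale with FB23-2 against DMSO (edgeR, adjusted p = 2.32e-06). The log2 fold change with FB23 was -0.22 ± 0.10 (edgeR, adjusted p = 0.13, 95% interval -0.44 to -0.01). With limma on log2(TPM + 1) it was -0.21 and called (adjusted p = 0.033). FB23-2 was also below FB23, by a log2 fold change of -0.59 ± 0.11 (edgeR, adjusted p = 7e-05). MVK, the kinase just before it, rose with both compounds: it averaged 168 ± 4.14 CPM with FB23-2, 47.7 ± 3.90 CPM with FB23 and 36.9 ± 2.86 CPM with DMSO (SD, n = 3 each). Per length, the TPM of MVK was 10.5 ± 0.67 times that of PMVK with FB23-2, 1.97 ± 0.14 times with FB23 and 1.30 ± 0.03 times with DMSO (SD, n = 3 each).

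Of the others in this segment, ACAT2, the cytosolic thiolase that joins acetyl-CoA units, averaged 413 ± 13.6 CPM with FB23-2, 186 ± 2.86 CPM with FB23 and 150 ± 3.51 CPM with DMSO (SD, n = 3 each). HMGCS1, the HMG-CoA synthase, averaged 864 ± 30.1 CPM with FB23-2, 229 ± 12.0 CPM with FB23 and 189 ± 5.28 CPM with DMSO. IDI1, which isomerises isopentenyl diphosphate, averaged 528 ± 15.4 CPM with FB23-2, 159 ± 7.79 CPM with FB23 and 103 ± 7.89 CPM with DMSO. ACAT2, HMGCS1, MVK and IDI1 rose in both comparisons with DMSO, by log2 fold changes of 1.46 to 2.36 with FB23-2 and of 0.28 to 0.63 with FB23. The IDI1 response to FB23, 1.54-fold, was the largest of the segment.

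Squalene synthase, squalene epoxidase and lanosterol synthase carry the pathway from farnesyl diphosphate to the first sterol. All 3 genes rose with both compounds against DMSO, beside 41.3% of all tested genes called higher with FB23-2 and 12.3% with FB23. LSS, the lanosterol synthase, had 771, 799 and 745 CPM with FB23-2, 107, 104 and 110 CPM with FB23 and 86.0, 86.6 and 89.8 CPM with DMSO. The 3 groups were separate, in the order FB23-2, FB23, DMSO. Its log2 fold change was 3.14 ± 0.05 with FB23-2 (edgeR, adjusted p = 1e-18) and 0.29 ± 0.05 with FB23 (adjusted p = 0.000278). SQLE, the epoxidase, rose less: 1057, 1057 and 1096 CPM with FB23-2, 417, 370 and 376 CPM with FB23 and 341, 339 and 325 CPM with DMSO. The log2 fold change of SQLE was 1.67 ± 0.05 with FB23-2 (edgeR, adjusted p = 2.11e-15) and 0.21 ± 0.05 with FB23 (adjusted p = 0.00523). FDFT1, squalene synthase, averaged 1433 ± 38.6 CPM with FB23-2, 394 ± 15.1 CPM with FB23 and 337 ± 4.47 CPM with DMSO (SD, n = 3 each). In TPM, SQLE stood at 644 ± 38.2 and LSS at 524 ± 13.9 with FB23-2, against 170 ± 3.46 and 49.95 ± 1.74 with DMSO (SD, n = 3 each).

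After lanosterol, 8 of the 9 listed genes rose with FB23-2 against DMSO and LBR fell, beside 41.3% of all tested genes called in each direction. TM7SF2 and LBR both encode sterol reductases that act on the product of CYP51A1, and LBR is also a chromatin-tethering protein of the inner nuclear membrane. TM7SF2 had 142, 145 and 136 CPM with FB23-2, 28.3, 26.9 and 33.3 CPM with FB23 and 16.4, 15.5 and 17.1 CPM with DMSO. LBR had 228, 225 and 241 CPM with FB23-2, 325, 308 and 294 CPM with FB23 and 323, 326 and 318 CPM with DMSO. FB23-2 was highest for TM7SF2 and lowest for LBR with no overlap, and the FB23 and DMSO libraries overlapped for LBR. TM7SF2 rose by 3.11 ± 0.08 with FB23-2 (edgeR, adjusted p = 2.42e-16) and by 0.87 ± 0.08 with FB23 (adjusted p = 2.27e-06). LBR fell by 0.48 ± 0.05 with FB23-2 (edgeR, adjusted p = 2.88e-08), and its log2 fold change with FB23 was -0.06 ± 0.05 (adjusted p = 0.355). The TPM of TM7SF2 over that of LBR was 1.82 ± 0.13 with FB23-2, 0.289 ± 0.044 with FB23 and 0.153 ± 0.009 with DMSO (SD, n = 3 each), so TM7SF2 was the more abundant transcript with FB23-2 and LBR with FB23 and with DMSO.

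CYP51A1, the lanosterol demethylase, rose less than any other riser after lanosterol: it had 214, 208 and 219 CPM with FB23-2, 126, 123 and 113 CPM with FB23 and 109, 110 and 110 CPM with DMSO. Its log2 fold change was 0.97 ± 0.05 with FB23-2 (edgeR, adjusted p = 2.6e-12) and 0.13 ± 0.05 with FB23 (adjusted p = 0.0579). NSDHL, a sterol dehydrogenase of the demethylation steps, had 134, 130 and 135 CPM with FB23-2, 40.7, 44.0 and 49.7 CPM with FB23 and 47.4, 43.4 and 46.9 CPM with DMSO. FB23-2 stood apart, while FB23 and DMSO overlapped. NSDHL rose by 1.54 ± 0.06 with FB23-2 (edgeR, adjusted p = 2.11e-13), and its log2 fold change with FB23 was -0.02 ± 0.07 (adjusted p = 0.877, 95% interval -0.16 to 0.12), of a sign that turned with scaling by library totals.

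MSMO1, the methyl sterol oxidase, averaged 228 ± 8.68 CPM with FB23-2, 51.4 ± 3.97 CPM with FB23 and 39.2 ± 1.14 CPM with DMSO (SD, n = 3 each) and rose with both compounds. DHCR7, the reductase of a final step, averaged 1730 ± 111 CPM with FB23-2, 378 ± 25.4 CPM with FB23 and 342 ± 12.2 CPM with DMSO. Its log2 fold change was 2.34 ± 0.06 with FB23-2 (edgeR, adjusted p = 2.62e-16) and 0.15 ± 0.06 with FB23 (adjusted p = 0.0709). HSD17B7, EBP and SC5D, a reductase, an isomerase and a desaturase of the sterol ring, rose by 1.73, 1.30 and 1.80 on the log2 scale with FB23-2. With FB23 the log2 fold changes were 0.23 for HSD17B7 and 0.08 for EBP, neither called. SC5D was called with FB23, at 0.22 ± 0.07 (edgeR, adjusted p = 0.0278), but not without any 1 of the 3 DMSO libraries (adjusted p = 0.0849, 0.063 and 0.0825) or without FB23 replicate 1 or 2 (adjusted p = 0.0772 and 0.121). On TPM SC5D was also not called with FB23, at 0.22 (limma, adjusted p = 0.111).

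**Figure D3:**
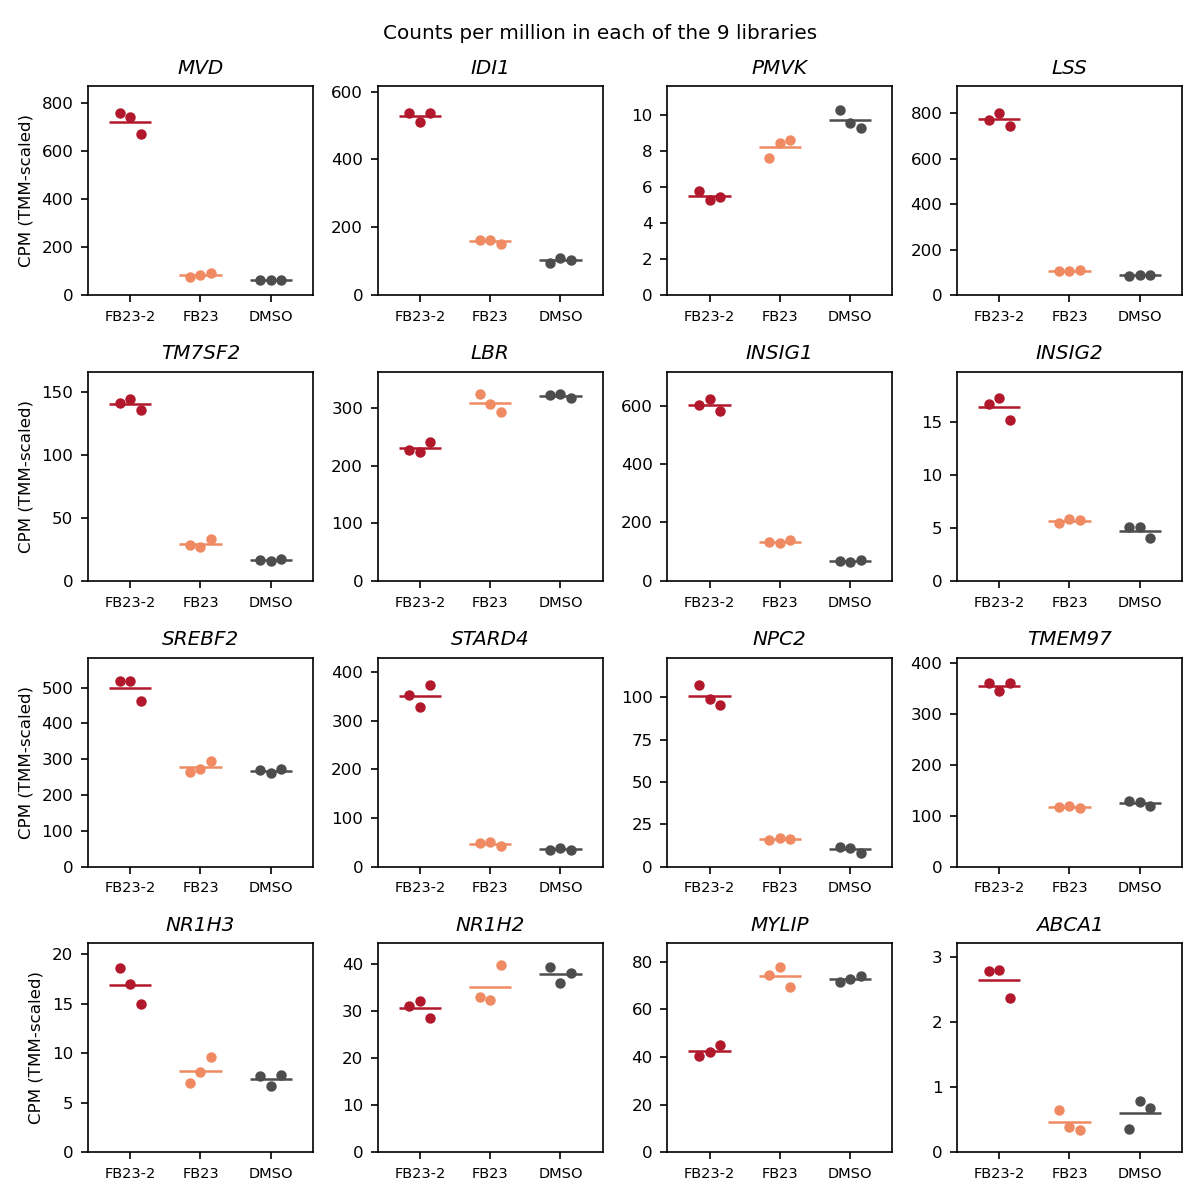
CPM of 16 members in each library, with FB23-2, FB23 and DMSO from left to right in each panel, points for libraries and lines for the group mean. MVD, LSS, TM7SF2, INSIG1, STARD4 and NPC2 stand highest with FB23-2, with FB23 above DMSO in each. PMVK, LBR and MYLIP stand lowest with FB23-2.

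Among the genes that sense sterol, INSIG1 moved far more than the transcription factor gene itself. INSIG1, the retention protein that is itself an SREBP target, had 602, 623 and 581 CPM with FB23-2, 133, 131 and 140 CPM with FB23 and 68.5, 64.6 and 71.4 CPM with DMSO. The groups were separate, and FB23 lay clearly above DMSO. INSIG1 rose by 3.14 ± 0.05 with FB23-2 (8.84-fold, edgeR, adjusted p = 2.95e-18) and by 0.98 ± 0.05 with FB23 (1.98-fold, adjusted p = 1.65e-09), the largest response to FB23 of any member. INSIG2, the paralog not known as an SREBP target, had 16.6, 17.2 and 15.2 CPM with FB23-2, 5.41, 5.81 and 5.72 CPM with FB23 and 5.06, 5.05 and 4.01 CPM with DMSO. It rose by 1.80 ± 0.11 with FB23-2 (edgeR, adjusted p = 6.76e-11), and its log2 fold change with FB23 was 0.27 ± 0.12 (adjusted p = 0.128). In TPM INSIG1 exceeded INSIG2 by 26.5 ± 0.89 times with FB23-2, 17.1 ± 0.81 times with FB23 and 10.6 ± 1.94 times with DMSO (SD, n = 3 each).

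SREBF2 had 518, 517 and 462 CPM with FB23-2, 266, 273 and 294 CPM with FB23 and 270, 262 and 273 CPM with DMSO. FB23-2 was separate from the others, which overlapped. The log2 fold change of SREBF2 was 0.90 ± 0.05 with FB23-2 (edgeR, adjusted p = 2.51e-11), the smallest rise of any SREBP target that rose, and 0.05 ± 0.05 with FB23 (adjusted p = 0.512, 95% interval -0.06 to 0.16). SCAP, the escort protein gene, had 124, 122 and 111 CPM with FB23-2, 139, 138 and 150 CPM with FB23 and 138, 131 and 139 CPM with DMSO. SCAP was lower with FB23-2, by 0.19 ± 0.05 on the log2 scale against DMSO (edgeR, adjusted p = 0.00229), and its log2 fold change with FB23 was 0.07 ± 0.05 (adjusted p = 0.354). With another scaling alone it stayed lower but was not called, at -0.02 with upper-quartile factors (edgeR, adjusted p = 0.687) and -0.05 with library totals (adjusted p = 0.376). On log2(TPM + 1), where unit and test also differ, SCAP was 0.05 higher with FB23-2 and not called (limma, adjusted p = 0.258).

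All 4 transport genes rose with FB23-2 against DMSO, beside 41.3% of all tested genes called higher. STARD4, a cytosolic sterol carrier, had 353, 329 and 374 CPM with FB23-2, 49.5, 50.5 and 42.7 CPM with FB23 and 34.7, 37.4 and 34.7 CPM with DMSO. It rose by 3.30 ± 0.07 with FB23-2 (9.88-fold, edgeR, adjusted p = 3.78e-17) and by 0.41 ± 0.07 with FB23 (adjusted p = 0.000677), with no overlap between any groups. NPC1 and NPC2 pass cholesterol out of the lysosome, the first as a membrane protein and the other as its soluble partner. NPC2 had 107, 98.9 and 95.3 CPM with FB23-2, 15.7, 16.7 and 16.3 CPM with FB23 and 11.6, 11.3 and 8.33 CPM with DMSO. NPC2 rose by 3.27 ± 0.09 with FB23-2 (edgeR, adjusted p = 8.21e-16) and by 0.65 ± 0.10 with FB23 (adjusted p = 0.000254). NPC1 averaged 140 ± 2.23 CPM with FB23-2, 49.9 ± 1.21 CPM with FB23 and 40.8 ± 1.39 CPM with DMSO (SD, n = 3 each) and also rose with both. TMEM97, a membrane protein that binds NPC1, had 362, 345 and 362 CPM with FB23-2, 118, 119 and 115 CPM with FB23 and 129, 128 and 120 CPM with DMSO. TMEM97 rose by 1.5 ± 0.04 with FB23-2 (edgeR, adjusted p = 2.27e-15). With FB23 its 3 libraries lay just below those with DMSO, and the log2 fold change of -0.10 ± 0.04 was not called (edgeR, adjusted p = 0.12).

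The LXR genes showed no common direction. NR1H3, which encodes LXR alpha and is itself an LXR target in human macrophages, had 18.6, 17.0 and 15.01 CPM with FB23-2, 6.96, 8.06 and 9.60 CPM with FB23 and 7.74, 6.68 and 7.77 CPM with DMSO. FB23-2 was above the others, which overlapped. NR1H3 rose by 1.2 ± 0.12 with FB23-2 (edgeR, adjusted p = 5.53e-08), and its log2 fold change with FB23 was 0.19 ± 0.13 (adjusted p = 0.303, 95% interval -0.08 to 0.46). NR1H2, which encodes the widely expressed LXR beta, had 31.1, 32.1 and 28.4 CPM with FB23-2, 32.9, 32.4 and 39.7 CPM with FB23 and 39.3, 35.9 and 38.1 CPM with DMSO. NR1H2 was lower with FB23-2 than with DMSO, by 0.30 ± 0.08 (edgeR, adjusted p = 0.00249), and the call was lost with upper-quartile factors, library totals and TPM. FB23-2 against FB23 gave -0.21 ± 0.08 (edgeR, adjusted p = 0.0254), which was not called with DESeq2 size factors, upper-quartile factors, library totals, the filter of 1 CPM or the DESeq2 test (adjusted p = 0.0519, 0.658, 0.343, 0.0529 and 0.0686). It was -0.09 and not called without FB23 replicate 3 (adjusted p = 0.28), nor called without FB23-2 replicate 1 or 3 (adjusted p = 0.0659 and 0.093). On TPM that difference was 0.04 (limma, adjusted p = 0.609). The TPM of NR1H2 over that of NR1H3 was 1.92 ± 0.13 with FB23-2, 4.54 ± 0.41 with FB23 and 5.41 ± 0.25 with DMSO (SD, n = 3 each).

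MYLIP, the LXR-induced ubiquitin ligase, had 40.5, 42.1 and 45.3 CPM with FB23-2, 74.5, 77.9 and 69.3 CPM with FB23 and 71.4, 72.8 and 74.0 CPM with DMSO. The FB23-2 libraries lay below all others, and FB23 and DMSO overlapped. MYLIP fell by 0.78 ± 0.06 with FB23-2 (edgeR, adjusted p = 1.14e-09), and its log2 fold change with FB23 was 0.02 ± 0.06 (adjusted p = 0.83, 95% interval -0.10 to 0.14), which became -0.02 without FB23 replicate 2. ABCA1, the cholesterol exporter, was rare: 72, 54 and 39 counts with FB23-2, 8, 12 and 13 counts with FB23 and 6, 14 and 11 counts with DMSO. It rose by 2.11 ± 0.29 with FB23-2 (4.30-fold, edgeR, adjusted p = 3.05e-06), with all 3 FB23-2 libraries above the rest. With FB23 the log2 fold change of ABCA1 was -0.54 ± 0.38 (edgeR, adjusted p = 0.33), and its 95% interval of -1.34 to 0.26 left room for a change in either direction. ABCG1, a partner exporter, had 1 count in the 9 libraries, from FB23, and could not be tested. At this depth 3 counts over all 9 libraries correspond to 0.0156 CPM, for counting error only. The TPM of the 4 LXR targets summed to 42.2 to 44.3 with FB23-2, 41.7 to 46.3 with FB23 and 41.2 to 43.7 with DMSO, since MYLIP fell while NR1H3 rose.

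Summed per length, the 23 SREBP targets took 8022 to 8213 TPM with FB23-2, 1955 to 2019 TPM with FB23 and 1665 to 1676 TPM with DMSO. The mean sum with FB23-2 was 4.85 times that with DMSO, and with FB23 it was 1.19 times. DHCR7 was the most abundant member with FB23-2, at 1199 ± 37.4 TPM, and with DMSO, at 199.5 ± 6.54 TPM (SD, n = 3 each). With DMSO it was followed by FDPS at 195.0 ± 3.64 and FDFT1 at 194.7 ± 2.11 TPM, and those 3 levels lay within their spread. By level MVD ranked 3 of 32 with FB23-2, at 765 ± 20.8 TPM, and 11 with DMSO, at 56.6 ± 1.35 TPM. LBR ranked 21 with FB23-2, at 106 ± 7.93 TPM, and 6 with DMSO, at 124 ± 2.09 TPM. ABCA1 stood at 0.41 ± 0.03 TPM with FB23-2, 0.06 ± 0.02 TPM with FB23 and 0.08 ± 0.03 TPM with DMSO.

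**Figure D4:**
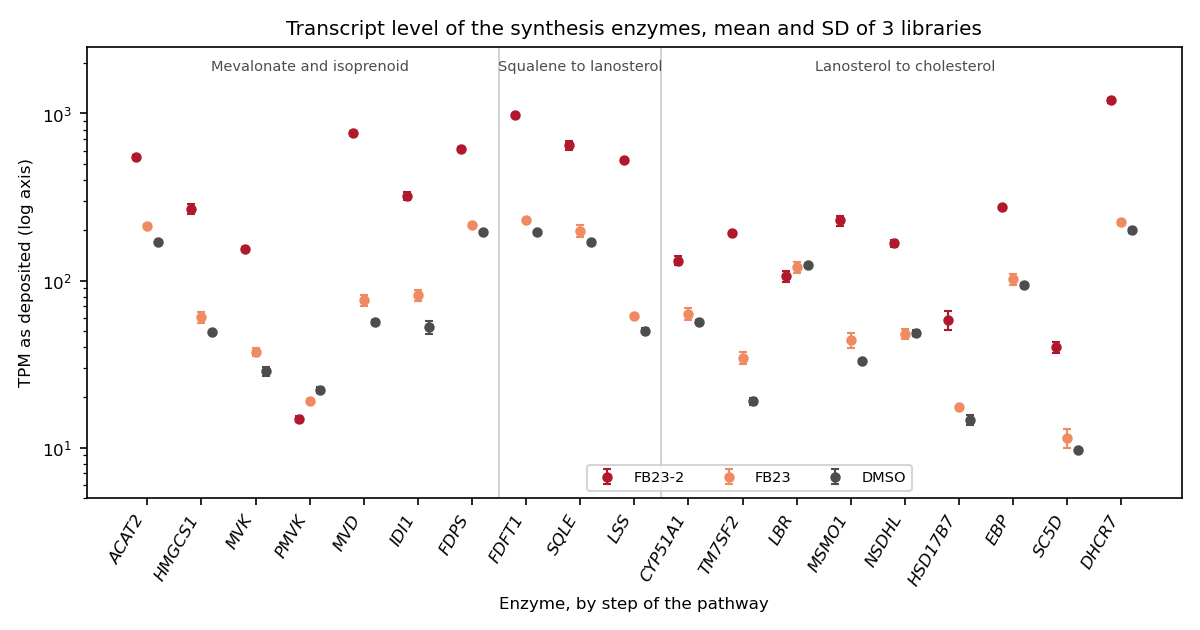
Mean deposited TPM (log axis) of the synthesis enzymes in pathway order with FB23-2, FB23 and DMSO, with bars for the SD over 3 libraries. FB23-2 lies above both other groups along the synthesis enzymes except at PMVK and LBR, and DHCR7 is highest at 1199 TPM with FB23-2.

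In neighbouring pathways the directions were mixed. Of 9 genes of the branches that use farnesyl diphosphate for dolichol, ubiquinone and protein prenylation, 2 rose and 7 fell with FB23-2 against DMSO, with a median log2 fold change of -1.24, against 0.01 for all tested genes. In that comparison 41.3% of all tested genes were called higher and 41.3% lower. With FB23, 2 rose and 4 were called lower, where 12.3% of all tested genes were called higher and 11.2% lower. The 4 (PDSS1, NUS1, PDSS2 and FNTB, the last 3 named after their values were seen) became 0 without DMSO replicate 1 and 1 without FB23 replicate 2 or on TPM. FNTA, also named after its values were seen, was the weaker riser with FB23-2, at 0.12, and was not called without any 1 DMSO library or without FB23-2 replicate 3. GGPS1, geranylgeranyl diphosphate synthase, rose by 0.62 ± 0.07 with FB23-2 (edgeR, adjusted p = 4.39e-07), at 43.0 ± 3.61 CPM with FB23-2, 36.5 ± 2.62 CPM with FB23 and 27.9 ± 0.45 CPM with DMSO (SD, n = 3 each). PDSS1, which makes the ubiquinone side chain, had 10.5, 11.7 and 10.2 CPM with FB23-2, 51.9, 47.2 and 50.6 CPM with FB23 and 58.5, 57.1 and 57.5 CPM with DMSO. PDSS1 fell by 2.42 ± 0.07 with FB23-2 (edgeR, adjusted p = 1.82e-15). Its log2 fold change with FB23 was -0.21 ± 0.06 (edgeR, adjusted p = 0.0145), which was not called without DMSO replicate 1 (-0.20, adjusted p = 0.0596) or without FB23 replicate 2 (-0.17, adjusted p = 0.096). COQ2, which attaches that chain, was named after its values were seen: it fell by 1.24 with FB23-2 and rose by 0.34 with FB23.

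Of 8 further sterol-sensing genes, 2 rose and 5 fell with FB23-2 against DMSO, and 3 rose and 1 fell with FB23. The share called, 7 of 8 with FB23-2, was close to the 82.6% of all tested genes, and with FB23 23.5% of all tested genes were called. With FB23 the 3 became 2 without DMSO replicate 1, DMSO replicate 3 or FB23 replicate 2, and the 1 became 2 without FB23 replicate 3 or FB23-2 replicate 3. MBTPS2 and RNF139, also named after their values were seen, were among the 5 and were not called with upper-quartile factors or TPM. Of 9 storage and transfer genes 6 were tested, of which 3 rose and 1 fell with FB23-2, beside 41.3% of all tested genes in each direction. With FB23 SOAT1, a cholesterol esterification enzyme named after its values were seen, was called higher at 0.19 ± 0.06 (edgeR, adjusted p = 0.0223), but not without DMSO replicate 1 or 3, without FB23 replicate 1 or 2 (adjusted p = 0.0514 to 0.116 over these) or on TPM (limma, adjusted p = 0.104). STARD5, a sterol carrier, rose by 0.98 ± 0.19 with FB23-2 (edgeR, adjusted p = 0.000163). GRAMD1A, a sterol transfer protein, had a log2 fold change of -0.32 ± 0.06 that was called (edgeR, adjusted p = 5.21e-05) but not on TPM (limma, -0.07, adjusted p = 0.182).

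Of 6 other known LXR targets, 3 rose and 0 fell with FB23-2 against DMSO in the edgeR test, beside 41.3% of all tested genes called in each direction. In this comparison 0 were lower at an unadjusted p under 0.05, and 0 by DESeq2 and by limma. The risers were 3 by DESeq2, 4 with upper-quartile factors or library totals and 5 by limma on TPM. APOC1, named after its values were seen, was called on TPM at 0.19 (limma, adjusted p = 0.00208). On TPM the median of all genes was raised by 0.235. With FB23, 0 were called by edgeR, 1 was lower at an unadjusted p under 0.05, and 1 was called lower by DESeq2 and 0 by limma. That edgeR count became 2 lower without FB23 replicate 3 and 1 lower without FB23-2 replicate 3. Among the risers, PLTP, a phospholipid transfer protein, rose by 1.40 ± 0.09 and SREBF1, the gene of SREBP-1, by 0.35 ± 0.05 with FB23-2 (edgeR, adjusted p = 6.22e-11 and 1.12e-05). Both were named after their values were seen. SREBF1 was also counted among the 8 sterol-sensing genes, as 1 of the 2 that rose with FB23-2. Of 4 genes that pass electrons to the sterol oxygenases, 2 rose, 1 fell and 1 was not called with FB23-2, beside 82.6% of all tested genes called, and 0 were called with FB23 by edgeR, DESeq2 or limma, nor at an unadjusted p under 0.05. CYB5B rose by 0.47 ± 0.04 and CYB5A fell by 0.62 ± 0.16 with FB23-2 (edgeR, adjusted p = 1.21e-08 and 0.00132). POR, the other riser, named after its values were seen, was at 0.18 ± 0.06 (edgeR, adjusted p = 0.0148) and lost its call (adjusted p = 0.109 and 0.0933) when DMSO replicate 1 or FB23-2 replicate 2 was left out. The POR libraries overlapped, at 131, 137 and 117 CPM with FB23-2 and 108, 115 and 119 CPM with DMSO. With library totals LPCAT3, NCEH1, OSBP and CYB5R3 of these lists were also called as higher with FB23-2.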

How the data were processed

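Poly(A) RNA from 9 samples labelled NB4 was sequenced, per the labels' protocols. RSEM made the deposited expected counts and TPM of each gene, per the file headers. FPKM, also deposited as RSEM wrote it per the file headers, was not used. Version 1.2.31 of RSEM and build GRCh38 come from the submitters' processing notes. The aligner, annotation release and strand setting are not stated there. Each member had a single transcript in the deposited tables, so isoforms were not resolved.

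Rounded expected counts went into edgeR 4.0.16 (R 4.3.3). Of the genes, 13365 passed filterByExpr (minimum count 10, minimum total 15). Scaling was by TMM, and quasi-likelihood fits with trended dispersion used all 9 libraries and a mean for each group (common biological coefficient of variation 5.12%). P-values are two-sided and adjusted by Benjamini and Hochberg over all tested genes, and a call is an adjusted p under 0.05. SEs come from the F statistic, intervals are 95%, and SDs are over 3 libraries. Fitted folds use a prior count of 0.125. The procedure was tested on simulated data. For FB23 against DMSO it recovered 73.3% of log2 changes of 0.5, the smallest simulated, and 92.3% of changes of 1. For FB23-2 against DMSO it recovered 91.7% of changes of 1. Of the simulated calls, 6.19% were false with FB23-2 and 4.02% with FB23. In the simulation only a small part of the genes was changed, and all others were equal between groups. In the data 82.6% of tested genes were called with FB23-2 against DMSO and 23.5% with FB23. The simulated rates therefore do not measure the error rates of these comparisons. Levels between genes use TPM as deposited. Promoters are from RefSeq.

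The members, lists and tests were chosen with earlier results of these data known. Described in full were, in each role group, the called members with the largest and smallest change with FB23-2, all LXR genes, both INSIG genes and members whose direction differed between compounds, and from each further list the called gene with the largest rise and fall. Some of the genes that met this rule are not reported here. Alternatives were DESeq2 size factors, upper-quartile factors, library totals, no filter, a CPM filter (1 CPM in 3 libraries), Wald tests in DESeq2 1.42.0, limma 3.58.1 on log2(TPM + 1), fits of the 6 libraries compared, a replicate block, a required log2 change of 1, and fits without each library.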

Additional observations from a re-analysis of the deposited data

How the results depend on the processing

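Across the alternatives, the 26 members higher with FB23-2 stayed between 24 and 26, also against FB23. The members lower with FB23-2 against DMSO went to 3 of 5 with upper-quartile factors, library totals and log2(TPM + 1), where SCAP and NR1H2 were no longer called. Against FB23 they went to 3 with upper-quartile factors and TPM, and to 4, without NR1H2, with DESeq2 size factors, library totals, the CPM filter and the DESeq2 test. These scalings raised the median of all genes by 0.172, 0.148 and 0.235 on the log2 scale for FB23-2 against DMSO, and by 0.167, 0.13 and 0.221 against FB23. With TPM 61.3% of calls against DMSO were higher (6755 higher, 4261 lower), against 50% in the reported fit (5523 and 5518), and 61.6% against FB23 (6621 and 4130), against 49.5%. Of FB23's calls against DMSO, 66.1% were higher with no filter, against 52.4%. With FB23, 1 member and 1 SREBP target (PMVK) were lower with TPM. With an added minimum of 1, no member, SREBP target or LXR target was lower with FB23-2 (0 against DMSO, 0 against FB23) and 0 members and 0 SREBP targets were higher with FB23, while 4913, 155 and 4300 genes in all were called with FB23-2 over DMSO, with FB23 over DMSO and between the compounds. The sign turned for NSDHL with FB23 (0.00339 with library totals, 0.0166 with no filter, 0.00517 without DMSO replicate 1, 0.0317 without FB23 replicate 1 and 0.00813 without FB23 replicate 2), for MYLIP with FB23 (-0.0196 without FB23 replicate 2), for SCAP with FB23-2 against DMSO (0.0513 with TPM) and for NR1H2 between the compounds (0.0358 with TPM). FDPS, CYP51A1, DHCR7 and HSD17B7 were called with FB23 in some settings. The causes were not tested. Leaving out 1 library gave -0.0997 to 0.0317 for NSDHL and -0.0196 to 0.0762 for MYLIP with FB23, 14 to 16 members higher and 0 to 1 lower with FB23 (NR1H2 at -0.21, adjusted p = 0.0434 in edgeR, without FB23 replicate 3), 26 higher and 5 lower with FB23-2 against DMSO, 26 higher and 4 to 5 lower against FB23, and 2096 to 3303 genes called in all with FB23.

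For each tested gene the group mean of log2 CPM was subtracted, and these deviations were correlated between same-numbered libraries. The correlation was 0.0257 to 0.0856 for FB23-2 and DMSO, 0.0439 to 0.0755 for FB23 and DMSO and -0.185 to 0.0194 for the compounds. In these comparisons 4, 6 and 0 of 6 libraries correlated best with their own number. The comparisons thus differed, with all 6 matching for FB23 and DMSO, and the reported fit did not take the numbers as pairs. The fit with the replicate block called 10883, 2504 and 10705 genes with FB23-2 over DMSO, with FB23 over DMSO and between the compounds, and the members called stayed at 26 higher and 5 lower, 15 higher and 0 lower, and 26 higher and 5 lower. Depth limits ABCG1 and ABCA1.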
